A study of Oryza sativa with 8 samples.

Results

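Rice chromosome 11 holds a row of neighbouring loci annotated as class III chitinases or glycoside hydrolase family 18 proteins. Of these, 5 transcript models, each from its own locus, are described here: Os11t0700900-02, Os11t0701200-01, Os11t0701400-01, Os11t0701900-01 and Os11t0702200-01. They were picked by identifier out of 43481 transcript models with the values of all 3 groups already known, so their values are given as a description, without a test. From the first of them to the last, the deposited table lists 13 loci, of which 11 carry a class III chitinase or family 18 annotation.

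Chitin is a structural polymer of fungal cell walls, and plants lack it. Chitinases cut it, which weakens hyphae and frees chitin fragments that plant cells sense through receptors with LysM domains. Class III chitinases belong to glycoside hydrolase family 18, while most other plant chitinases belong to family 19. Some family 18 proteins of cereals cut no chitin and instead bind and inhibit the xylanases that microbes release.

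The transcripts were measured by RNA sequencing of total RNA from shoot apical meristem, the dome of dividing cells at the tip of the rice shoot. There were 2 libraries labelled Nipponbare, the japonica cultivar in whose background both lines stand. Another 3 were labelled GW6a-4.6, a line in which a chromosome segment of the cultivar Kasalath replaces that of Nipponbare. The last 3 were labelled OsglHAT1-OE, for transgenic plants in Nipponbare. The segment's borders, the transgene's promoter, the number of transgenic lines, plant age and the number of plants per library are not given in the sources used here. The p-values below therefore measure the spread between libraries, which may be technical. Both lines are compared with the same Nipponbare libraries.

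The values are the authors' RPM, reads at a model scaled by a library total. The totals were inferred from the step between values, taken as 1 read on a per-million scale, and ran from 5207710 to 7667853 reads. All read counts below rest on this step. A value from 3 reads was 0.391 to 0.576, depending on the library. Each library held 2.41 to 2.69 alignments per read of its total, so a read may have been counted at more than 1 model, and paralogs and isoforms may share reads. The library labelled OsglHAT1-OE replicate 3 stood apart at 2.41, against 2.66 or more in the other 7. The GW6a/OsglHAT1 transcript itself, Os06t0650300-00, went against the labels. It was at 1.46 and 2.30 in the libraries labelled Nipponbare, at 2642, 2573 and 2913 in those labelled GW6a-4.6, and at 13.2, 8.87 and 10.02 in those labelled OsglHAT1-OE. Whether libraries were exchanged, or this model does not take up the transgene's transcript, was not tested, so every direction by line below rests on the labels. Of 5 meristem genes, OSH1, OSH15 and FON1 were at 29.96 or more in every library, while WOX4 was at most 1.91 and LAX1 at most 0.724. Bulk libraries cannot tell fewer cells of a type from less RNA per cell.

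All 5 members were high in the libraries labelled GW6a-4.6 and low in both other groups. Summed over the 5 models, the value was 28.1 and 29.6 in the libraries labelled Nipponbare, 721 to 857 in those labelled GW6a-4.6 and 27.0 to 28.2 in those labelled OsglHAT1-OE. At each of the 5, all libraries labelled GW6a-4.6 lay above both of Nipponbare, as at 36% of the 31487 loci tested. At each, they also lay above all libraries labelled OsglHAT1-OE, as at 31.4% of loci. Both shares are given as background only, since the members were picked with these values known. Between the libraries labelled OsglHAT1-OE and Nipponbare, 1 member was higher without overlap, 1 was lower and 3 overlapped, where 29% and 37.9% of all loci were higher and lower without overlap.

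**Figure D1:**
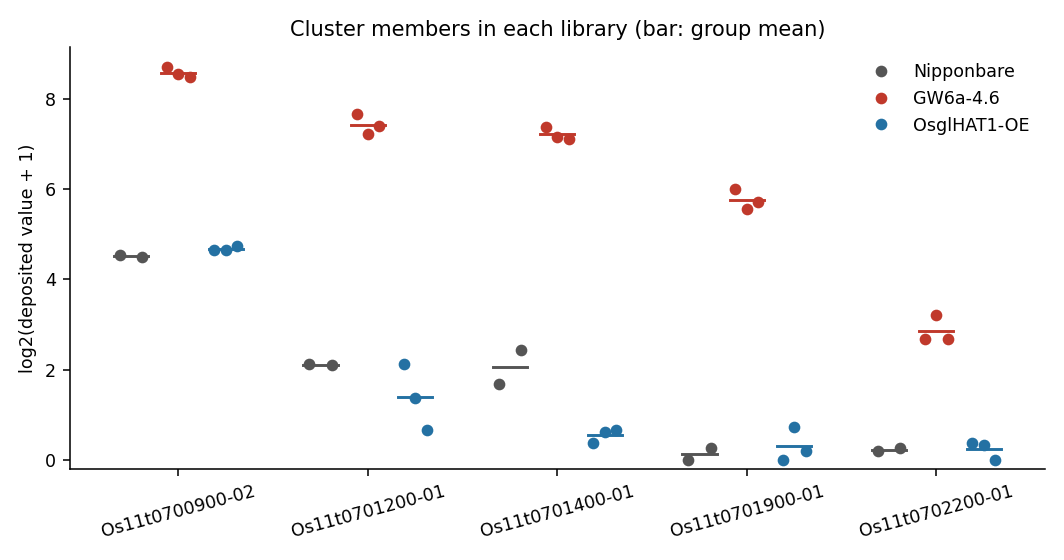
Each point is 1 library, on the log2 scale of the deposited value plus 1, for the 5 members in chromosome order, and each bar is the mean of a group of 2 or 3 libraries. The libraries labelled GW6a-4.6 stand above the other groups at every member, and the smallest gap is at Os11t0702200-01, whose values there were 5.36, 8.22 and 5.43.

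Os11t0700900-02, annotated as the class III chitinase homologue OsChib3H-b, was the only member with more than 100 reads in every library. Its value was 22.4 and 21.5 in the libraries labelled Nipponbare, 419.7, 376 and 361 in those labelled GW6a-4.6, and 24.2, 24.0 and 25.6 in those labelled OsglHAT1-OE. The libraries labelled GW6a-4.6 thus lay far above the rest, and those labelled OsglHAT1-OE lay just above Nipponbare with no overlap. The group means were 21.9 ± 0.617 (SD, n = 2), 386 ± 30.3 (n = 3) and 24.6 ± 0.897 (n = 3). The libraries labelled GW6a-4.6 were 17.6-fold above Nipponbare and 15.7-fold above those labelled OsglHAT1-OE, and the latter were 1.12-fold above Nipponbare. The same locus has a second model, Os11t0700900-01, annotated by its glycoside hydrolase catalytic core. That model was at 21.4 ± 0.132, 346 ± 22.7 and 23.5 ± 3.26 in the same groups, and its libraries labelled Nipponbare and OsglHAT1-OE overlapped. The ratio between both models stayed between 0.818 and 1.08 in all 8 libraries.

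Os11t0701200-01, annotated as a family 18 protein, was at 3.36 and 3.26 in Nipponbare, where it had 23 and 17 reads. It was at 202, 149 and 168 in those labelled GW6a-4.6 and at 3.38, 1.56 and 0.590 in those labelled OsglHAT1-OE. The last group spread widely, with 1 library at the level of Nipponbare and the other two below it. The means were 3.31 ± 0.0706 (n = 2), 173 ± 27.0 (n = 3) and 1.84 ± 1.41 (n = 3). The libraries labelled GW6a-4.6 stood 52.2-fold above Nipponbare and 93.9-fold above those labelled OsglHAT1-OE. The ratio of OsglHAT1-OE to Nipponbare was 0.556 and became 0.325 without OsglHAT1-OE replicate 1, and the fold of GW6a-4.6 over OsglHAT1-OE became 161.

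Os11t0701400-01, annotated as the class III chitinase C10150, was the member that lay above Nipponbare in one line and below it in the other, with no overlap. Its value was 2.19 and 4.42 in the libraries labelled Nipponbare, 166, 142 and 139 in those labelled GW6a-4.6, and 0.294, 0.522 and 0.590 in those labelled OsglHAT1-OE. No group overlapped another, and the order was OsglHAT1-OE, Nipponbare, GW6a-4.6 from low to high. The means were 3.31 ± 1.57 (n = 2), 149 ± 15.1 (n = 3) and 0.468 ± 0.155 (n = 3), the last from 10 reads over the group. The libraries labelled GW6a-4.6 were 45.1-fold above Nipponbare, or 67.9-fold without Nipponbare replicate 2. Those labelled OsglHAT1-OE were 7.06-fold below Nipponbare, or 4.69-fold without that library, and 318-fold below those labelled GW6a-4.6.

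Os11t0701900-01, a family 18 protein by annotation, had almost no reads outside 1 group. The libraries labelled Nipponbare held 0 and 1 read, and those labelled OsglHAT1-OE held 0, 5 and 1, while those labelled GW6a-4.6 held 356, 243 and 287. As values the last were 63.5, 46.4 and 52.0, a mean of 54.0 ± 8.73 (n = 3). Against the single read of Nipponbare the pooled ratio was 652, with an exact 95% counting interval of 117 to 25799.9, which covers counting error only. The ratio of means was 562, it became 281 without Nipponbare replicate 1, and without replicate 2 no read was left to divide by. The fold over the libraries labelled OsglHAT1-OE was 203, and 733 without OsglHAT1-OE replicate 2, which holds 5 of that group's 6 reads. The ratio of OsglHAT1-OE to Nipponbare was 3.40 with an interval of 0.412 to 156, so no difference between these groups was detectable at this depth. The ratio of means turned from 2.78 to 0.768 without OsglHAT1-OE replicate 2, and was 1.39 without Nipponbare replicate 1.

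Os11t0702200-01, the last family 18 locus of the row, was the weakest member. It had 1 read in each library labelled Nipponbare, 30, 43 and 30 in those labelled GW6a-4.6 and 2, 2 and 0 in those labelled OsglHAT1-OE. The values of the libraries labelled GW6a-4.6 averaged 6.34 ± 1.63 (n = 3). The pooled ratio to Nipponbare was 37.9, with a counting interval of 10.2 to 317, and the fold over the libraries labelled OsglHAT1-OE was 34.3 from 4 reads. Between OsglHAT1-OE and Nipponbare the ratio was 1.13 with an interval of 0.162 to 12.5.

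On the scale of log2 of the value plus 1, from the model of all 8 libraries, the members differed by 2.63 to 5.64 between GW6a-4.6 and Nipponbare, with a median of 5.17. The median over all tested loci was 0.07. Os11t0701900-01 and Os11t0702200-01 passed the filter on low values only through the libraries labelled GW6a-4.6, so the members' median is a description and no support. For OsglHAT1-OE against Nipponbare the members ran from -1.51 to 0.18, with a median of 0.01 beside -0.08 for all loci. This scale understates the members near the floor. At 4 of the 5 members GW6a-4.6 replicate 1 was the highest library of its group, and at the other one it was replicate 2.

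The row holds 6 further family 18 loci that are not among the members, and all of them stood high in the libraries labelled GW6a-4.6. By limma with Benjamini-Hochberg adjustment over all tested loci, 6 of 6 rose against Nipponbare, with a median log2 change of 3.42, where 26.7% of all loci were called higher. Against the libraries labelled OsglHAT1-OE, too, 6 of 6 were higher, where 24.7% of all loci were. These loci may share reads with the members and are not independent of them. OsChib3H-c (Os11t0701000-01) rose from 2.03 ± 1.21 (n = 2) to 105 ± 11.2 (n = 3), 51.7-fold (adjusted p = 1.22e-20), and was at 3.27 ± 0.492 in the libraries labelled OsglHAT1-OE. The OsChib3H-g-like locus Os11t0701500-01 rose 20.8-fold to 146 ± 13.8 (adjusted p = 1.18e-18). The OsChib3H-h-like locus Os11t0702100-01 rose 10.6-fold to 94.5 ± 16.6 (adjusted p = 1.72e-18). It was also higher in the libraries labelled OsglHAT1-OE than in Nipponbare, at 14.3 ± 1.96 against 8.90 ± 0.176 (adjusted p = 0.00229).

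The annotated name of Os11t0701800-01, OsChib3H-a, matched a RefSeq entry with the synonyms RIXI and XIP-I, names of a xylanase inhibitor. It rose from 3.79 ± 0.608 to 47.2 ± 4.50, 12.4-fold (adjusted p = 1.47e-14), and was at 4.02 ± 1.60 in the libraries labelled OsglHAT1-OE (adjusted p = 0.937 against Nipponbare). Os11t0701100-01 and Os11t0701600-00 rose 15.1-fold and 8.62-fold. Against Nipponbare, 3 of the 6 were called higher in the libraries labelled OsglHAT1-OE, by log2 changes of 0.54 to 0.62, where 22.8% of all loci were called higher. Of those 3, OsChib3H-c and Os11t0701100-01 had adjusted p of 0.0435 and 0.0481, and in each fit that left out 1 library, 1 or 2 of the 6 were called. Summed over the 11 family 18 loci of the row, the values were 58.4 and 58.8 in the libraries labelled Nipponbare, 1163 to 1401 in those labelled GW6a-4.6 and 59.3 to 74.99 in those labelled OsglHAT1-OE.

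Of the 10 nearest flanking loci, 5 on each side, 7 were tested. In the libraries labelled GW6a-4.6, 5 rose and none fell against Nipponbare, with a median log2 change of 1.18, and in those labelled OsglHAT1-OE, 4 rose and none fell, with a median of 1.26. Between the lines, 1 of the 7 differed. Among all loci, 26.7% and 22.8% were called higher in these lines, and 32.4% differed between them. Before the row, the NBS-LRR-like locus Os11t0700100-01, of a family of immune receptors, was at 3.53 ± 0.440 (n = 2) in Nipponbare, 3.27 ± 1.52 (n = 3) and 3.31 ± 0.561 (n = 3) (adjusted p = 0.715 and 0.859 against Nipponbare). The myb-like locus Os11t0700500-01, next to the first member, rose 1.72-fold to 26.5 ± 1.32 in the libraries labelled GW6a-4.6 (adjusted p = 0.000957) and was at 18.4 ± 3.45 in those labelled OsglHAT1-OE (adjusted p = 0.297). Just after the row, 2 loci had 3 or fewer reads in each group and were not tested, and the C2H2 zinc finger locus Os11t0702400-01 was at 0.914 ± 0.879, 1.02 ± 0.886 and no reads. The hypothetical loci Os11t0702501-00 and Os11t0702600-00 rose in both lines, 3.58-fold and 3.20-fold in the libraries labelled GW6a-4.6 and 4.83-fold and 3.74-fold in those labelled OsglHAT1-OE.

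Inside the row, 2 loci have no chitinase annotation. Os11t0701700-01, a hypothetical gene between family 18 loci, rose in both lines, from 16.3 ± 2.64 to 51.5 ± 11.3 in the libraries labelled GW6a-4.6 and to 56.4 ± 11.9 in those labelled OsglHAT1-OE (adjusted p = 2.94e-10 and 3.04e-11). The test between the lines gave an adjusted p of 0.547. Os11t0702000-01, a hypothetical protein next to Os11t0701900-01, had 2 reads in Nipponbare and 4 in the libraries labelled OsglHAT1-OE. It was at 31.5 ± 4.05 in those labelled GW6a-4.6. Whether this locus shares sequence with its neighbour was not examined.

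**Figure D2:**
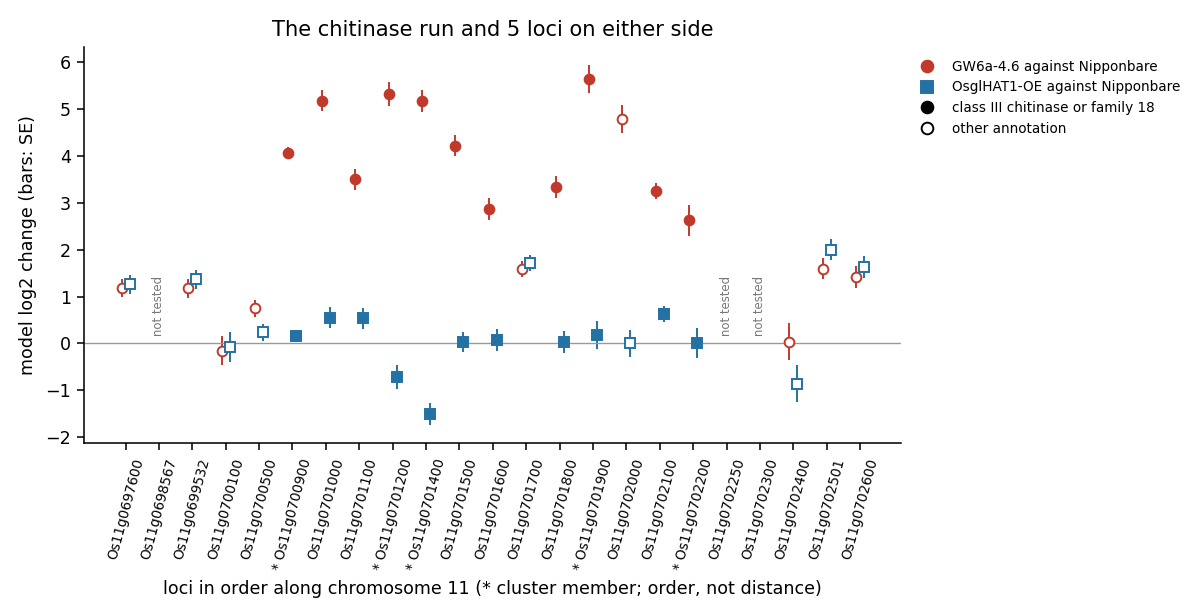
The model log2 change of each locus against Nipponbare, with its standard error, for the row and 5 loci on either side in chromosome order, circles for GW6a-4.6 and squares for OsglHAT1-OE. Filled symbols are class III chitinase or family 18 loci, which stand at 2.63 to 5.64 in GW6a-4.6, while the hypothetical gene Os11g0701700 in their midst stands at 1.59 and 1.72 in the 2 lines.

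As paralogs may share reads, each locus was also set against Os11t0700900-02 in the same library, a description chosen after the values were seen. For Os11t0701200-01 the ratio was 0.1503 and 0.1518 in the libraries labelled Nipponbare, 0.396 to 0.482 in those labelled GW6a-4.6 and 0.0230 to 0.139 in those labelled OsglHAT1-OE. For Os11t0701400-01 it was 0.0980 and 0.205, 0.378 to 0.396 and 0.0121 to 0.0230, and for Os11t0701900-01 at most 0.00893, 0.124 to 0.151 and at most 0.0272. The ratio of each of these members lay higher in the libraries labelled GW6a-4.6 than in the others, with no overlap. The same held for the member Os11t0702200-01, from few reads, at 0.0128 to 0.0219 against at most 0.0121. It also held for Os11t0701000-01, which is not a member, at 0.263 to 0.280 against at most 0.158. Os11t0701100-01, Os11t0701600-00 and Os11t0702100-01 had lower ratios there than in both other groups, the last falling from 0.392 and 0.420 in Nipponbare to 0.223 to 0.269. The part of shared reads in any of these values was not tested.

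**Figure D3:**
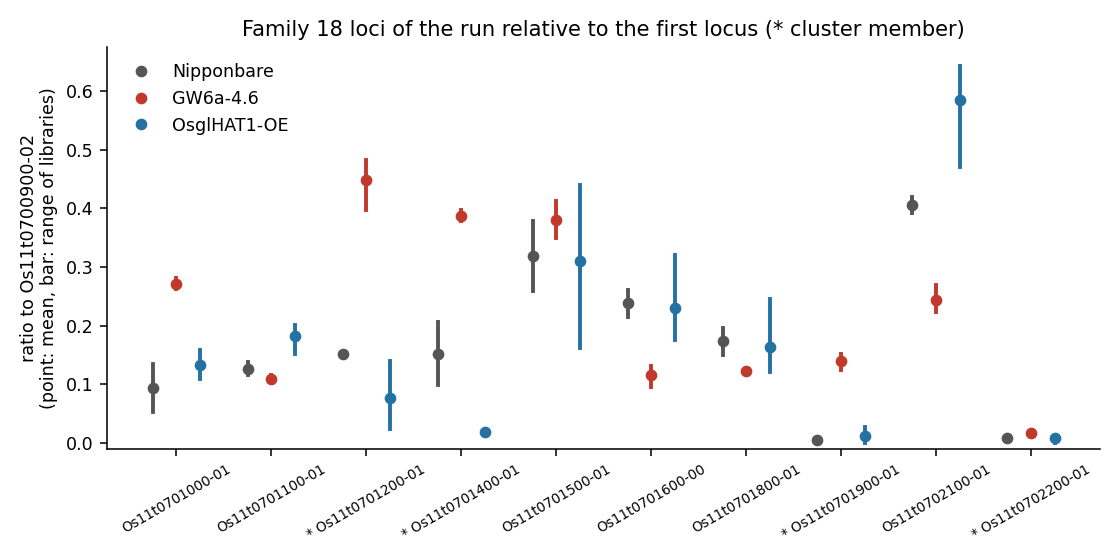
The value of each other family 18 locus of the row divided by that of Os11t0700900-02 in the same library, with the mean as a point and the range over libraries as a bar. The ratio of Os11t0701400-01 runs from 0.378 to 0.396 in the libraries labelled GW6a-4.6 and from 0.0121 to 0.0230 in those labelled OsglHAT1-OE.

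Across the 8 libraries the 5 members followed each other, with Pearson correlations of log2 values between 0.966 and 0.996 over their 10 pairs. The points share libraries, and at every member 3 of them stand above the other 5. Outside the row, 21 to 57 of 31474 loci reached 0.99 with a given member. The annotated loci most like Os11t0700900-02 were 3 HAT family dimerisation domain loci, led by Os11t0500100-00 (r = 0.999), which had no reads in Nipponbare, 526 in the libraries labelled GW6a-4.6 and 1 in those labelled OsglHAT1-OE. Those most like Os11t0701900-01 were of the same kind, led by Os01t0379800-00 (r = 0.998), and loci of 1 such family may share reads. Nearest to Os11t0701200-01 were the beta-1,3-glucanase Os01t0940700-02 (r = 0.998), of a class that cuts another fungal wall polymer, the Barwin-like locus Os11t0592000-01 (r = 0.997) and a cytochrome P450 (Os07t0418500-01, r = 0.996). Barwin-like proteins are pathogenesis-related proteins, and Os11t0592000-01 was at 106 ± 5.27 in Nipponbare, 409 ± 42.9 in the libraries labelled GW6a-4.6 and 85.7 ± 9.12 in those labelled OsglHAT1-OE.

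Nearest to Os11t0701400-01 was the subtilisin-like protease Os10t0451900-01 (r = 0.999), with 33 reads in Nipponbare, 7052 in the libraries labelled GW6a-4.6 and 2 in those labelled OsglHAT1-OE. An ABP20-like auxin-binding protein (Os04t0288100-00, r = 0.998) and a protein kinase (Os11t0213000-01, r = 0.997) came next. Os11t0702200-01 was most like a PLC-like phosphodiesterase (Os08t0503200-01, r = 0.995), a nicotinate phosphoribosyltransferase-like locus (Os04t0429800-01, r = 0.994) and Os12t0197100-01, with a pre-ATP-grasp fold (r = 0.994). The first of these was at 135 ± 5.76, 219.7 ± 9.66 and 134.5 ± 4.01, so that a correlation this high also goes with a far smaller change.

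Elsewhere in the genome, 11 other class III chitinase or family 18 loci were listed, 9 of them tested. In the libraries labelled GW6a-4.6, 6 rose and 2 fell against Nipponbare, with a median log2 change of 1.25. In those labelled OsglHAT1-OE, 3 rose and 5 fell, with a median of -0.83. Over all loci, 26.7% rose and 19.5% fell in the first line, and 22.8% rose and 29.7% fell in the second. Of the listed loci, 2 on chromosome 5 and Os08t0518800-01 stood above Nipponbare in one line and below it in the other, as Os11t0701400-01 did. Os05t0247800-01 was at 57.6 and 59.3 in Nipponbare, 332, 316 and 321 in the libraries labelled GW6a-4.6 and 28.8, 29.0 and 26.8 in those labelled OsglHAT1-OE. It rose 5.52-fold in the first line (adjusted p = 8.04e-21) and fell to 0.482 of Nipponbare in the second (adjusted p = 2.33e-10). Os05t0248200-01, named after its values were seen and so given no p-value, rose 2.48-fold in the first line. In the second it fell to 0.108, from 13.4 ± 1.63 to 1.45 ± 0.215. The class III locus Os05t0247100-02 instead rose in both, 2.81-fold and 2.64-fold, to 694 ± 35.7 and 653 ± 47.5 (adjusted p = 2.5e-18 and 1.23e-17). OsChib3a (Os01t0660200-01), an acidic class III chitinase, was also named after its values were seen and is given no p-value. It fell in both lines, to 0.537 and 0.182 of its Nipponbare value of 229 ± 15.3.

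A further 27 loci, all tested, were annotated as chitinase without a class III or family 18 label. They mix family 19 enzymes with loci similar to hevamine, acidic endochitinase and tulip bulb chitinase. Some of these are family 18-like enzymes, so the split from the family 18 list is by annotation text and not by family. In the libraries labelled GW6a-4.6, 14 rose and 5 fell, with a median log2 change of 0.64, where 26.7% of all loci were called higher and 19.5% lower. In those labelled OsglHAT1-OE, 3 rose and 14 fell, with a median of -0.54, where 22.8% were called higher and 29.7% lower. The tulip bulb chitinase-like locus Os10t0416500-04 rose 2.19-fold to 507 ± 56.0 in the first line (adjusted p = 5.64e-12) and fell to 97.1 ± 12.1 in the second, 0.419 of Nipponbare (adjusted p = 2.19e-13). The chitinase Os05t0399300-01 did likewise, 1.62-fold and 0.382-fold (adjusted p = 6.01e-05 and 6.94e-11). Chitinase 11 (Os03t0132900-01) fell to 0.322 in the libraries labelled OsglHAT1-OE (adjusted p = 4.94e-16) and stood at 1.15 of Nipponbare in those labelled GW6a-4.6 (adjusted p = 0.116). Os04t0493400-01 and Os04t0494100-02 fell in both lines, to between 0.369 and 0.593 of Nipponbare. Os06t0726200-02 rose 2.05-fold in the libraries labelled GW6a-4.6, and Os06t0149400-01 rose in both lines, 1.25-fold and 1.26-fold.

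Beta-1,3-glucanases, which cut wall glucans and are commonly induced beside chitinases, were listed at 49 loci, 44 of them tested. In the libraries labelled GW6a-4.6, 22 rose and 8 fell, with a median log2 change of 0.41, and in those labelled OsglHAT1-OE, 15 rose and 14 fell, with a median of 0.03. The shares of all loci called higher and lower were 26.7% and 19.5% in the first line and 22.8% and 29.7% in the second, so the falls were near the background in both. Os01t0947000-01 rose 6.23-fold to 148 ± 8.02 in the first line and fell to 14.6 ± 1.78 from 23.7 ± 2.31 in the second (adjusted p = 6.35e-18 and 0.000138). Os01t0940800-01 rose in both, 7.13-fold and 2.89-fold, as did Os07t0539900-01, 5.63-fold and 3.65-fold. Os02t0771700-01 rose 1.20-fold in the libraries labelled OsglHAT1-OE (adjusted p = 0.0119), and Os07t0539100-01 rose 1.17-fold in those labelled GW6a-4.6 (adjusted p = 0.0396). Os01t0940700-02, the glucanase most like Os11t0701200-01, rose 3.51-fold to 512 ± 34.1 and stood at 0.897 of Nipponbare in the libraries labelled OsglHAT1-OE (adjusted p = 0.155).

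Of 11 loci for chitin perception, 10 were tested, and in the libraries labelled GW6a-4.6, 2 rose and 4 fell, while in those labelled OsglHAT1-OE, 2 rose and 5 fell. Of all loci, 26.7% and 19.5% were called higher and lower in the first line and 22.8% and 29.7% in the second. CEBiP (Os03t0133400-01), the rice receptor that binds chitin fragments, fell from 279.6 ± 7.57 to 126 ± 2.62 and 101 ± 8.03 (adjusted p = 1.62e-12 and 1.29e-15). Its partner kinase OsCERK1 (Os08t0538300-01) was named after its values were seen, so no p-value is given. OsCERK1 stood at 1.09 of Nipponbare in the libraries labelled GW6a-4.6 and at 0.746 in those labelled OsglHAT1-OE. The LysM loci Os03t0110600-00 and Os06t0729900-00 fell in both lines, and LYP4 (Os09t0452200-01), another chitin-binding LysM protein, rose in both, 1.57-fold and 2.02-fold (adjusted p = 0.00125 and 2.39e-06).

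**Figure D4:**
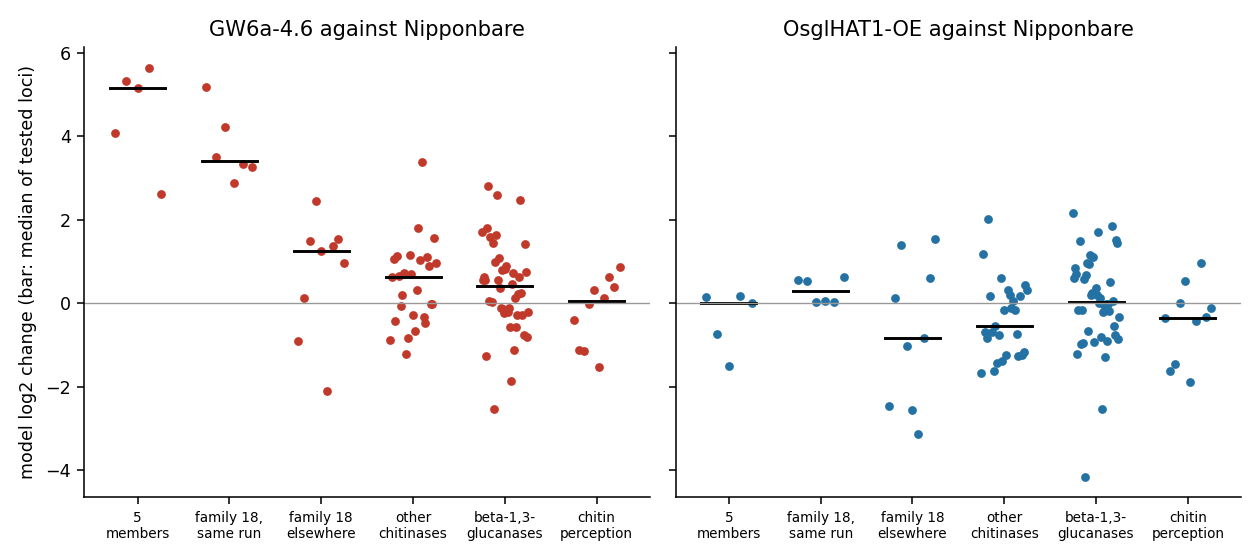
Each point is the model log2 change of 1 tested locus against Nipponbare, for the libraries labelled GW6a-4.6 on the left and OsglHAT1-OE on the right, by list, and each bar is the list's median. The medians of the members are 5.17 and 0.01, and those of the other chitinases 0.64 and -0.54.

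Over all loci, 46.3% passed the test between GW6a-4.6 and Nipponbare, 52.5% between OsglHAT1-OE and Nipponbare, and 32.4% between the lines. Between the lines 2422 loci (7.69%) were higher and 7787 lower in the libraries labelled OsglHAT1-OE, or 5893 and 5857 under median-ratio scaling, which moved the median of all loci from -0.13 to 0.01. The list of 44 seed and desiccation loci (late embryogenesis abundant proteins, dehydrins and the like) was summed at 4893 to 5331 in Nipponbare, 1491 to 1584 in the libraries labelled GW6a-4.6 and 1224 to 1437 in those labelled OsglHAT1-OE, with 2 of them at no reads in any library. The root list, 24 loci mostly annotated as nitrate or ammonium transporters, ran from 585 to 594, from 430.5 to 468 and from 329 to 403. Of these sums, the nitrate transporter-like Os03t0687000-02 alone gave 250 and 259, 148 to 172 and 99.9 to 116. The loci annotated as root-specific, Os02t0131800-01, Os10t0349300-01 and Os10t0551800-00, were at 4.42 or less in every library. The sum thus mainly follows transporters and is no measure of root tissue. Leaf markers, 60 loci with 2 at no reads, ran from 5033 to 5501, from 4211 to 5271 and from 4869 to 5904. The 5 meristem markers summed to 169 and 169.8 in Nipponbare, 338 to 361 in the libraries labelled GW6a-4.6 and 263 to 337 in those labelled OsglHAT1-OE, and 3 of the 4 tested were called higher in each line. By sum, the meristem list thus stood higher, and the seed and root lists lower, in both lines than in Nipponbare. FON1 went the other way in the libraries labelled GW6a-4.6, at 84.1, 78.6 and 71.4 against 86.3 and 90.8. Of 19 root loci tested, 3 rose and 9 fell in GW6a-4.6, and 4 rose and 9 fell in OsglHAT1-OE. Of 34 seed loci tested, 25 fell in each line, while 3 and 2 rose. Among all loci, 26.7% rose and 19.5% fell in the first line, and 22.8% and 29.7% in the second. The part of these cell types in the members' values was not tested.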

How the data were processed

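Total RNA was extracted with a column kit, treated with DNase and made into single-end libraries, per the labels. Bowtie, edgeR and the build IRGSP-1.0 are named in the submitters' processing notes, with no version or role. The authors deposited 1 signal value per transcript model, called RPM in the file headers. Divided by the step that 1 read is worth in its library, 100.0% of the values came out whole (tolerance 0.01), which gave the reads behind each value. Columns held at least 2.41 alignments per read of the library total, so the values are not strict RPM, and the planned test was kept.

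The model with the highest mean was kept for each of 36819 loci, and 31487 of these entered the test, namely those that reached a value of 1 in 2 libraries or more. All 5 members passed. Of them, Os11t0701900-01 and Os11t0702200-01 passed only through the libraries labelled GW6a-4.6, as they were at most 0.652 and 0.294 in every other library. The same holds for Os11t0702000-01 of the row, at most 0.384 elsewhere. The test was limma 3.58.1 in R 4.3.3 on log2 of the value plus a pseudocount of 1, with all 8 libraries in 1 model and Benjamini-Hochberg adjustment at 0.05. Folds are ratios of group means of the deposited signal, with pooled reads and exact binomial 95% intervals where a group had 1 to 3 reads. Intervals cover counting error only. The test was checked on simulated data. Alternatives were other pseudocounts, filters, scalings, edgeR 4.0.16 and DESeq2 1.42.0 on the recovered reads, 2 groups at a time, every model kept, a replicate block, and each library left out.

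Outside the members, the loci of the row and its flanks, up to 4 loci per list with the smallest adjusted p were named, with any above Os11t0700900-02 in mean value, and for each member the 3 annotated loci with the highest correlation. The members and lists were chosen with earlier results of these data known.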

Additional observations from a re-analysis of the deposited data

Results flagged for a closer look

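Some loci had every library labelled GW6a-4.6 above both Nipponbare libraries and every library labelled OsglHAT1-OE below them. The loci looked at were the members, the rest of the row, its flanks, the chitin pathway lists and the loci most like the members. Of all tested loci, 36% met the first condition and 37.9% the second. The share that met both was not computed, so the loci are listed without a count and are no result about the lists. Among them is the member Os11t0701400-01, at a mean of 3.31 in Nipponbare, 149 in the libraries labelled GW6a-4.6 and 0.468 in those labelled OsglHAT1-OE. For this member the difference between the lines was not tested.

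Family 18 loci elsewhere come next. Os05t0247800-01 was at 58.5, 323 and 28.2 in the same order of groups, Os05t0248200-01 at 13.4, 33.3 and 1.45, and Os08t0518800-01, similar to OsChib3H-h, at 4.30, 12.7 and 1.94. For these and those below, the difference between the lines follows from how they were flagged, so no p-value is given. Of the other chitinases, Os10t0416500-04 was at 231, 507 and 97.1, Os05t0399300-01 at 140.3, 227 and 53.5, and Os03t0132900-01 at 174, 199.9 and 56.0. For Os03t0132900-01 the rise in the libraries labelled GW6a-4.6 did not pass the test. Os01t0687400-01 was at 39.7, 84.6 and 24.3, and the basic endochitinase-like Os03t0418000-00 at 59.9, 100.3 and 40.8. The glucanase Os01t0947000-01 was at 23.7, 148 and 14.6, and the LysM receptor-like kinase Os09t0511000-01 at 37.8, 49.7 and 30.

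The last 4 were also picked for a pattern like that of a member, and their difference between the lines was not tested. The Barwin-like Os11t0592000-01 was at 106, 409 and 85.7, and the subtilisin-like Os10t0451900-01 at 2.85, 431 and 0.0983. The ABP20-like Os04t0288100-00 was at 14.7, 68.2 and 9.65, and the kinase Os11t0213000-01 at 18.3, 56.6 and 14.5.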

How the results depend on the processing

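For all 5 members, GW6a-4.6 stayed above Nipponbare and above OsglHAT1-OE under every alternative run, while the sign for OsglHAT1-OE against Nipponbare changed at Os11t0701900-01 (-0.03 to 1.82) and Os11t0702200-01 (-0.15 to 0.24). The members' median log2 change between GW6a-4.6 and Nipponbare was 5.17. It became 5.53 with a pseudocount of 0.1, 5.49 by edgeR and 5.48 by DESeq2, and ran from 4.79 to 5.31 with 1 library left out. Between OsglHAT1-OE and GW6a-4.6 it was -5.46, and became -6.23 and -6.76 with pseudocounts of 0.5 and 0.1, -6.40 by edgeR and -6.43 by DESeq2. A smaller pseudocount widens changes near the floor by construction. Of the chitin perception genes, 5 were called between the lines, but 3 with no filter, 3 by DESeq2, 8 with every model kept and 3 without GW6a-4.6 replicate 2 or OsglHAT1-OE replicate 2. Glucanase loci called between OsglHAT1-OE and Nipponbare went from 29 to 44 with every model kept, which adds rows by construction. The other causes were not tested. Correlations between groups, of deviations from group means, ran from -0.003 to 0.065 for same-numbered libraries and from -0.065 to 0.031 for the others. With so few libraries per group these cannot settle whether replicate numbers pair the libraries. With the replicate block, 14698, 16421 and 10908 loci were called in place of 14566, 16536 and 10209. Depth limits Os11t0701900-01 and Os11t0702200-01, which have 6 reads or fewer outside the libraries labelled GW6a-4.6 in each group.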

Other observations

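Other stretches were scanned after the values were seen, with a window of 13 consecutive tested loci and a log2 change of 2 or more above both other groups. This window is as long as the chitinase row, whose members were picked with this pattern known. The rank of the row among the stretches is therefore no result, and neighbouring paralogs may share reads. In the libraries labelled GW6a-4.6, 171 tested loci (0.543%) met that mark, and the chitinase row held 12 of them, with the hypothetical gene Os11t0701700-01 as the exception. Of the 12, Os11t0701900-01, Os11t0702000-01 and Os11t0702200-01 passed the filter on low values only through those libraries. The next stretches were 8 of 13 on chromosome 7, among genes of pathogenesis-related protein 1, and 8 of 13 on chromosome 8, among DUF26 domain genes. On chromosome 2, 6 of 13 were met in a stretch with cinnamoyl-CoA reductase-like genes. By the same size, 11 loci were lower in the libraries labelled GW6a-4.6 than in both other groups, with 6 of 13 in a stretch of conserved hypothetical loci on chromosome 6. In the libraries labelled OsglHAT1-OE, 134 loci were lower than in both other groups, with 5 of 13 among germin-like protein genes on chromosome 8 and 5 of 13 in a stretch with glutathione S-transferase genes on chromosome 10.

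The chitinase Os08t0518900-01, from another chromosome, had a pattern like that of the row. It was at 1.02 and 1.15 in Nipponbare, 18.9, 18.9 and 24.99 in the libraries labelled GW6a-4.6 and 1.17, 1.04 and 1.33 in those labelled OsglHAT1-OE, a rise of 19.3-fold (limma, adjusted p = 6.09e-13). The xylanase inhibitor-like locus Os06t0356800-01 went the other way, from 16.6 ± 0.947 (n = 2) to 3.21 ± 1.21 (n = 3) and 1.03 ± 0.252 (n = 3). Os08t0518900-01 and Os06t0356800-01 were named after their values were seen, so no p-value is given for them.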
